A study of Rattus norvegicus with 6 samples.

Results

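The genes described here encode receptors, ligands and surface proteins of the blood vessel wall, and were read from RNA of whole neonatal rat ovaries. The 10 genes were chosen by name and comprise Vegfa, its receptor genes Kdr and Flt1, the receptor genes Tek and Tie1 with the ligand genes Angpt1 and Angpt2, and the endothelial genes Pecam1, Eng and Vwf. A probe was matched to 9 of them through its RefSeq accession, with 12 probes in all, of 15148 named genes and 30367 probes on the array. No probe was matched to Vwf, which was not analysed here. Wistar rat pups had been injected intraperitoneally on postnatal days (PNDs) 3 and 5 with 0.05 mg/kg of LPS from Salmonella, a bacterial lipopolysaccharide, or with saline of equal volume, and ovaries of female pups were taken on PND 7. Each treatment had 3 arrays, and each array was hybridized with Cy3-labeled cRNA. The study's methods describe more animals than arrays in each treatment, drawn from few litters. The animals and litters behind each array were not used here, and the p-values measure the spread between these arrays alone.

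VEGF-A is the main growth factor for endothelial cells. It signals chiefly through the receptor encoded by Kdr, whereas the product of Flt1 binds it tightly and signals weakly. Angiopoietin-1, the product of Angpt1, activates the receptor encoded by Tek and stabilises vessels, and angiopoietin-2 can oppose it. Tie1 encodes a partner receptor of Tek. Pecam1 encodes a junctional adhesion molecule of endothelium that platelets and leukocytes also carry, and Eng encodes endoglin, a co-receptor for ligands of the TGF-beta family. In the ovary, vessels grow and regress with each cycle, and VEGF-A takes part in the growth of follicles and of the corpus luteum.

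Upstream sequences from RefSeq (assembly GRCr8) were available for 5 of the 10 genes. They are shown for the 4 endothelial receptor genes measured on every array and for Vegfa, at the first of its RefSeq start sites, because Kdr, Flt1, Tie1 and Vegfa were highest on the same 2 arrays, as described below, with Eng beside them for comparison. Each is the 200 bases before the start of transcription, read 5′ to 3′ on the strand of the gene. Capitals mark GGAAG or its complement CTTCC, a core sequence of ETS-family transcription factors.
Kdr (chr14:32571863-32572062, plus strand): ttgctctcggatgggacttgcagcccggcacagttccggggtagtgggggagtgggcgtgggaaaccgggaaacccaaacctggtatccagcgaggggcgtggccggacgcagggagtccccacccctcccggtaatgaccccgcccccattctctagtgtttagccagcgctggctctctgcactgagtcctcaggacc
Flt1 (chr12:12333230-12333429, plus strand): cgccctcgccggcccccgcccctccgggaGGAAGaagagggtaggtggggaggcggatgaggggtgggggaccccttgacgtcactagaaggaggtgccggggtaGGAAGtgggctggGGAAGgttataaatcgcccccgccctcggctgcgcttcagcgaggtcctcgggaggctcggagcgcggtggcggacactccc
Tie1 (chr5:137304982-137305181, minus strand): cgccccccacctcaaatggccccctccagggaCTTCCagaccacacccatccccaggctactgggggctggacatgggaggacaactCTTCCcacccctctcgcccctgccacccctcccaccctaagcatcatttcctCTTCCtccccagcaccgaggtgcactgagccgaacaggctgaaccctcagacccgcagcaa
Eng (chr3:36332079-36332278, plus strand): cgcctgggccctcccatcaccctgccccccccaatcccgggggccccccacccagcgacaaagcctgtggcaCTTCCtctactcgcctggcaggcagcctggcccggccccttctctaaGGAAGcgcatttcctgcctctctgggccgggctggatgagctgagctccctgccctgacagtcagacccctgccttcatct
Vegfa (chr9:22452654-22452853, plus strand): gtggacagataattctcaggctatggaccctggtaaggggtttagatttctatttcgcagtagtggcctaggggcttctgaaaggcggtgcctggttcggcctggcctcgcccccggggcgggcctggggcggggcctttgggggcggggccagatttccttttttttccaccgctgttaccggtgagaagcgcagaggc
The window held 3 copies of the core for Flt1, 3 for Tie1, 2 for Eng, 0 for Kdr and 0 for Vegfa. It is a short and common sequence, and 56.1% of the 33469 windows of the same length in the RefSeq table held at least 1 copy on either strand. The GC box GGGCGG, a core sequence of Sp1, was found 3 times for Vegfa, 2 times for Flt1 and 1 time for Kdr, and in 28.6% of all windows. TATAAA was found 1 time for Flt1 and in 0 copies for the other 4, against 10.4% of all windows. A match describes the letters of the window and not a bound site.

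All 6 arrays lay on 1 slide. An array's 75th percentile of processed signal was between 2824 and 6754, between 66.3% and 76.0% of spots were well above background, and 0 spots were saturated. Levels are given here on a log2 scale relative to the array's 75th percentile, so that 0 is a bright spot and each unit is a doubling. A gene or probe is called measured where its signal was well above background on each of the 6 arrays, and the probes of this kind number 17585. Granulosa cell and oocyte transcripts marked every array as ovary: Inha lay between 2.91 and 5.08 and Zp3 between 3.48 and 4.97. Their amounts were uneven. In units of the 75th percentile, the summed granulosa cell markers ran from 19.3 on LPS replicate 1 to 68.7 on LPS replicate 2. The summed oocyte markers ran from 16.6 to 46.5 on the same arrays. Saline replicates 2 and 3 also carried transcripts of the adrenal gland. All 5 adrenal cortex and all 8 adrenal medulla markers examined were higher on both of these arrays than on any of the other 4. The summed linear level of the cortex markers, in units of the 75th percentile, was 117.2 and 174.2 on saline replicates 2 and 3 and between 0.597 and 1.36 on the other arrays. For the medulla markers it was 94.4 and 57.7 on saline replicates 2 and 3 and between 3.49 and 6.35 elsewhere. Cyp11b1, Mc2r, Chga and Chgb were well above background on saline replicates 2 and 3 and on 0 of the other arrays. Cyp21a1, Cyp11b3, Pnmt, Th, Ddc and Slc18a1 were at least 2-fold lower with LPS at an unadjusted p under 0.05, with log2 fold changes from -4.65 for Cyp21a1 to -2.15 for Th. The main vascular results are therefore also given without saline replicates 2 and 3, a comparison chosen after the data had been seen that leaves 1 saline array.

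Of the 9 genes with a probe, 6 were measured in this sense. In LPS-treated ovaries, 5 of these 6 had a lower mean level than in saline-treated ovaries. The difference passed an unadjusted p under 0.05 for Vegfa, 1 of the 6, and for no gene after adjustment over all probes. The median log2 fold change (LPS minus saline) was -0.21 over these 6 genes and -0.14 over all 9 genes with a probe, compared with -0.04 over all 30367 probes and 0.02 over the measured probes. With genes that lack a signal above background left out or set at their bound, the median over 7 genes was -0.14. The median over the 6 measured genes was 0.55 without the saline arrays that carried adrenal transcripts, which leaves 1 saline array. It was -0.56 without saline replicate 1. A lower level with LPS was therefore not established for these genes as a set. Whether any difference lay in the number of endothelial cells, in RNA per cell or in the adrenal transcripts was not tested. Of the 9 genes, 0 passed the study's criterion of a 2-fold difference at p under 0.05, applied to the unadjusted p, a criterion that 1.69% of all probes passed, 0.613% higher and 1.08% lower. At an unadjusted p under 0.05 alone, 2 of the 9 were lower and 0 were higher, against 14.1% of all probes lower, 2.46% higher and 16.5% in either direction. One of these 2 was Angpt1, which was not above background on any array. Among the measured probes 2.39% were lower at that threshold and 4.08% passed it in either direction, and 1 of the 6 genes was lower. After adjustment, limma called 0 of all 30367 probes at 0.05, where 5018 had an unadjusted p under 0.05, and an analysis of variance of the same values also gave 0.

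**Figure D1:**
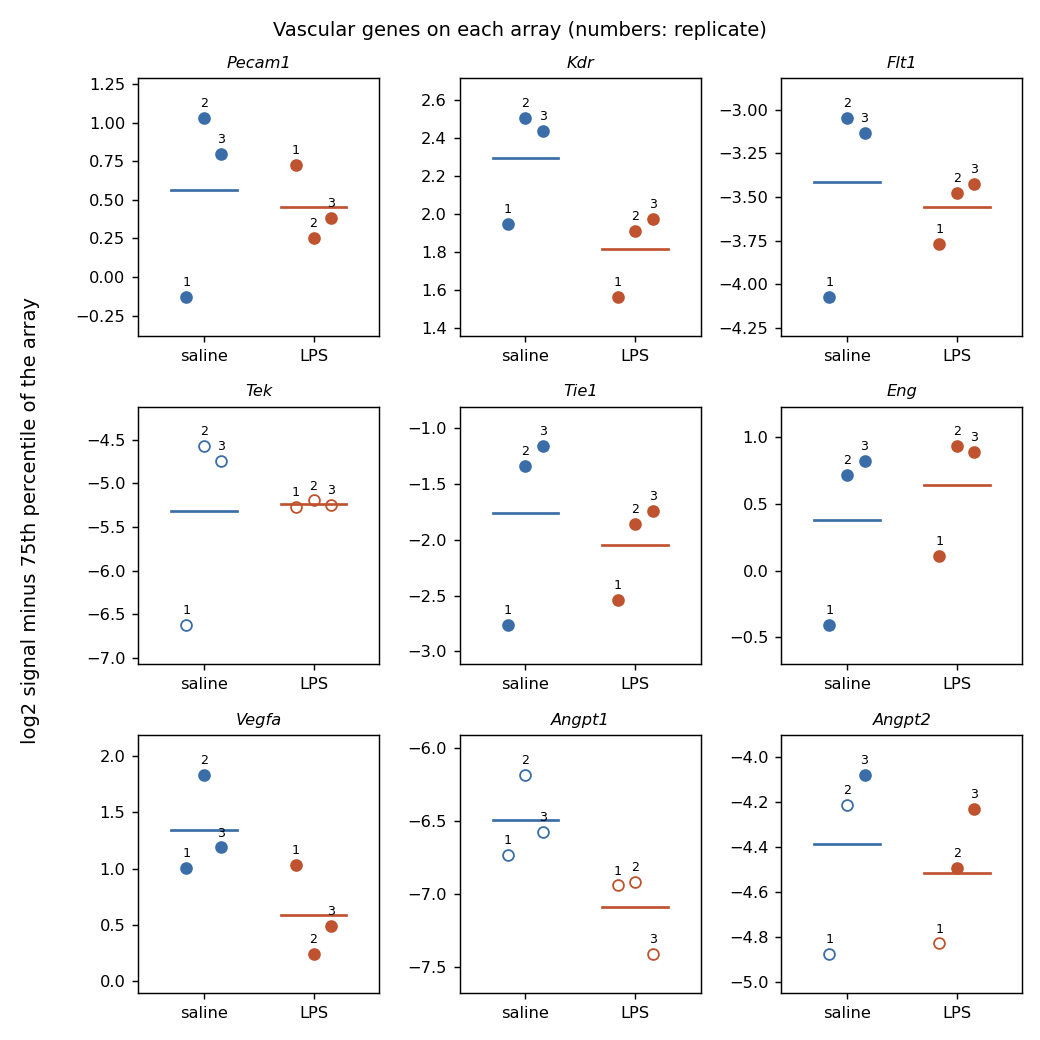
Level of each of the 9 vascular genes with a probe (brightest probe, log2 signal relative to the array's 75th percentile) on the 3 saline arrays (blue) and the 3 LPS arrays (orange). Numbers give the replicate, bars the group mean, and open circles an array on which the probe was not well above background. The groups overlap for every gene without open circles, and Tek and Angpt1 have open circles throughout.

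Vegfa, the ligand, had 4 probes. The brightest stood at 1.00, 1.83 and 1.19 on saline replicates 1, 2 and 3 and at 1.03, 0.25 and 0.49 on LPS replicates 1, 2 and 3. LPS replicates 2 and 3 lay below all saline arrays, while LPS replicate 1 lay above saline replicate 1, so the groups overlapped. The mean was 0.59 ± 0.40 (SD, n = 3) with LPS and 1.34 ± 0.44 (SD, n = 3) with saline. The log2 fold change was -0.75 (standard error 0.30, 95% interval -1.48 to -0.03), or 0.593 of the saline level. The unadjusted p from limma was 0.044 and the adjusted p was 0.293. With the replicate number as a block the same difference had an unadjusted p of 0.083. Within the row of the slide that held the 3 saline arrays and LPS replicate 1, the log2 difference was -0.31, and the other row held LPS arrays alone. It was -0.41 without saline replicates 2 and 3. Neither value passed an unadjusted p under 0.05. Leaving out single arrays gave negative values, between -0.98 without LPS replicate 1 and -0.51 without saline replicate 2.

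The other 3 Vegfa probes were dimmer and less even between arrays. The second probe, also measured on every array, stood at -2.97, -1.24 and -1.50 on saline replicates 1 to 3 and at -2.65, -2.54 and -2.32 on LPS replicates 1 to 3. Saline replicates 2 and 3 were the highest of the 6 arrays and saline replicate 1 the lowest, and the log2 fold change of -0.60 had a standard error of 0.45 (adjusted p = 0.652 in limma). The next probe followed the same order, with -5.20, -2.46 and -2.82 for saline and -3.99, -3.73 and -3.54 for LPS. It was not well above background on saline replicate 1, and its log2 fold change was -0.26 (standard error 0.69). Without saline replicates 2 and 3 the difference for the second probe was 0.47, which did not pass an unadjusted p under 0.05, and for the next probe the 1 saline array left was not above background. The dimmest probe was well above background on 1 array, saline replicate 3, and on 0 LPS arrays, so the size of its difference cannot be interpreted. Over the mean of the 4 probes the log2 fold change was -0.79, which did not pass an unadjusted p under 0.05. All 4 probes were higher on both saline replicate 2 and saline replicate 3 than on any other array.

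**Figure D2:**
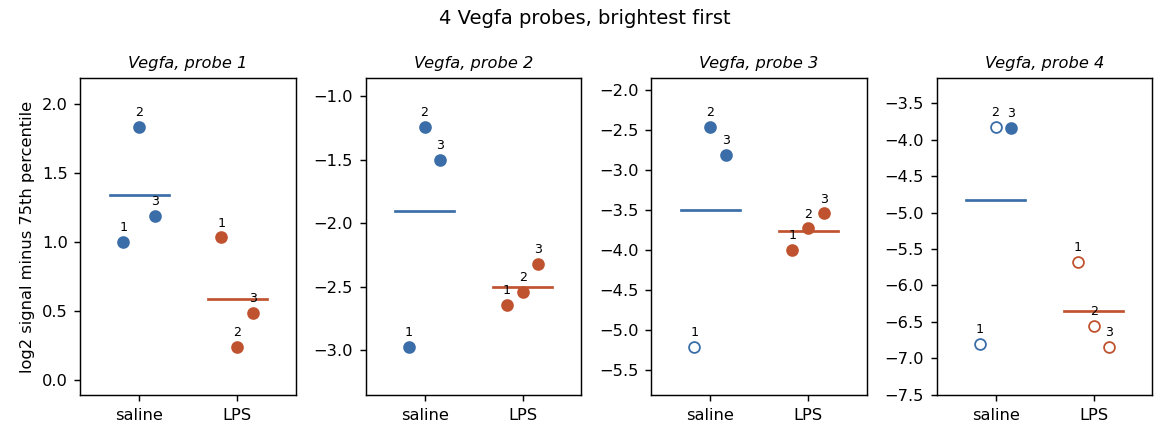
Levels of the 4 Vegfa probes on each array, brightest probe at the left (log2 signal relative to the array's 75th percentile). Colours, numbers, bars and open circles are as for the plot of all vascular genes. On every probe saline replicates 2 and 3 are the highest of the 6 arrays, and saline replicate 1 lies below LPS replicate 1. On the brightest probe saline replicate 1 lies just below LPS replicate 1 and above LPS replicates 2 and 3.

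Kdr, the main signaling receptor for VEGF-A, stood at 1.95, 2.51 and 2.44 on saline replicates 1 to 3 and at 1.57, 1.91 and 1.98 on LPS replicates 1 to 3. LPS replicate 3 lay just above saline replicate 1, and each of the other LPS arrays lay below all saline arrays. Means were 1.82 ± 0.22 (SD, n = 3) with LPS and 2.30 ± 0.30 (SD, n = 3) with saline. The log2 fold change was -0.48 (standard error 0.22, 95% interval -1.02 to 0.05, adjusted p = 0.344 in limma), or 0.716 of the saline level. The unadjusted p was 0.071 in limma and 0.024 with the replicate number as a block, and the LPS array lay below the saline array of the same number in 3 of 3 pairs. Within the shared slide row, where LPS replicate 1 stands alone against the 3 saline arrays, the log2 difference was -0.73. It remained negative with each array left out, between -0.66 without saline replicate 1 and -0.36 without LPS replicate 1. However, it was -0.13 without saline replicates 2 and 3, and did not pass an unadjusted p under 0.05 there.

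Flt1, whose product limits the access of VEGF-A to the Kdr receptor, stood at -4.07, -3.05 and -3.13 with saline and at -3.77, -3.48 and -3.43 with LPS, in order of replicate. The LPS arrays fell between saline replicate 1 and saline replicates 2 and 3. The log2 fold change was -0.14 (standard error 0.31, 95% interval -0.87 to 0.59). It was 0.51, with the opposite sign, without saline replicates 2 and 3, and passed an unadjusted p under 0.05 in neither comparison.

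Because Kdr and Flt1 have opposed roles, the difference between their log2 signals was compared within each array, where the scaling between arrays cancels. This difference was 6.02, 5.55 and 5.57 on saline replicates 1 to 3 and 5.33, 5.39 and 5.40 on LPS replicates 1 to 3, and the groups did not overlap. The mean of 5.37 ± 0.04 (SD, n = 3) with LPS was 0.34 lower than the mean of 5.72 ± 0.26 (SD, n = 3) with saline. A two-sided exact permutation test gave p = 0.1, the smallest that 3 arrays against 3 allow, and 0.3 after adjustment over the 3 gene pairs compared. Without saline replicates 2 and 3 the change was -0.65, in the same direction, and with each array left out it lay between -0.42 and -0.19. With quantile normalization it was -0.23 (exact permutation p = 0.5), and the groups overlapped. A value within an array shows an unequal difference for the 2 probes and not which of them differed. The other pairs were Angpt2 minus Angpt1, which changed by 0.46 (exact permutation p = 0.3), and Tie1 minus Tek, which changed by -0.37 (exact permutation p = 0.4). Both of these include a gene that was not above background, and so cannot be interpreted.

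Of the receptor and ligand genes of the angiopoietin system, Tie1 was the 1 measured gene. Its level was -2.76, -1.34 and -1.16 on saline replicates 1 to 3 and -2.54, -1.86 and -1.74 on LPS replicates 1 to 3. The 2 arrays of replicate number 1 were the lowest, and saline replicates 2 and 3 the highest. The log2 fold change of -0.29 had a standard error of 0.46 and a 95% interval from -1.39 to 0.81. It was -0.79 without saline replicate 1, with an unadjusted p of 0.036 in limma, and 0.72 without saline replicates 2 and 3. Angpt2 was well above background on 3 arrays, saline replicate 3 and LPS replicates 2 and 3. It stood at -4.87, -4.21 and -4.08 with saline and at -4.83, -4.49 and -4.23 with LPS, for a log2 fold change of -0.13 (standard error 0.28).

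Tek and Angpt1 were well above background on 0 of 6 arrays, so the size of a fold change cannot be interpreted for them. The signal of Tek lay between -6.62 and -4.57 with saline and between -5.26 and -5.19 with LPS. That of Angpt1 lay between -6.73 and -6.18 with saline and between -7.41 and -6.91 with LPS, below saline on all 3 arrays. Over dim and bright probes together, 30364 with a value on each array, the LPS arrays lay below all saline arrays at 18.4%.

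The 2 remaining genes mark endothelium more generally. Pecam1 stood at -0.13, 1.03 and 0.80 with saline and at 0.73, 0.25 and 0.38 with LPS, in order of replicate. All LPS arrays lay between saline replicate 1 and the other saline arrays. The log2 fold change was -0.11 (standard error 0.33, 95% interval -0.90 to 0.68). Eng stood at -0.41, 0.71 and 0.82 with saline and at 0.11, 0.93 and 0.89 with LPS. It was the 1 gene of the 6 with a higher mean in LPS-treated ovaries, by a log2 of 0.27 (standard error 0.40, 95% interval -0.68 to 1.22). Neither gene passed an unadjusted p under 0.05 under any of the alternatives. The differences were 0.58 for Pecam1 and 1.05 for Eng without saline replicates 2 and 3.

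The spread over the 6 arrays was wide for these genes. The standard deviation over the 6 arrays was between 0.36 for Kdr and 0.64 for Tie1 in the 6 genes, compared with a median of 0.25 over the measured probes. Saline replicates 2 and 3 had a higher level than each of the other 4 arrays in 5 of the 6 genes, the exception being Eng. Among the measured probes 13.4% had this order. The 2 arrays of replicate number 1 had a lower level than each of the other 4 in 3 of the 6 genes, Flt1, Tie1 and Eng, compared with 16.8% of those probes. With each gene centred on its mean, the average over the 6 genes was -0.51, 0.51 and 0.38 on saline replicates 1 to 3 and -0.25, -0.11 and -0.01 on LPS replicates 1 to 3. The LPS arrays thus lay between saline replicate 1 and saline replicates 2 and 3. The median over the 6 genes was -0.56 without saline replicate 1 and 0.55 without saline replicates 2 and 3, so its sign depended on which saline arrays were used. These orders were noticed after the values had been seen, and the part of the adrenal transcripts in them was not tested beyond these comparisons.

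**Figure D3:**
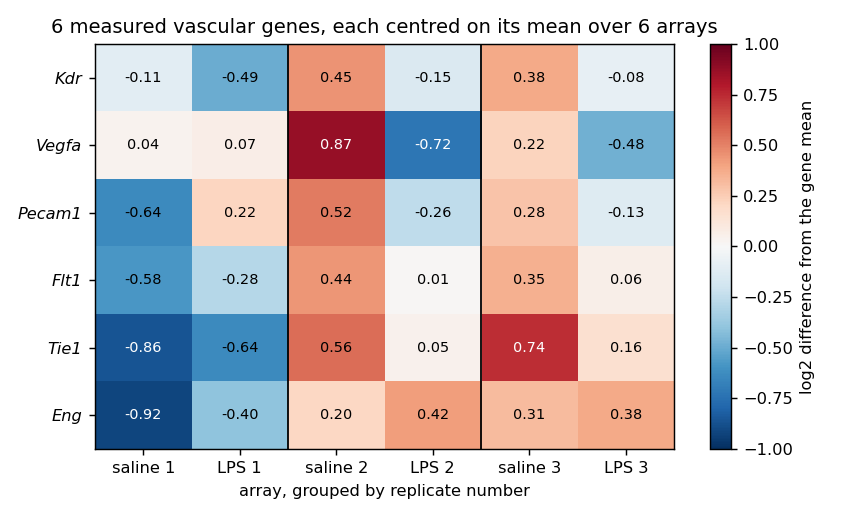
Level of the 6 measured vascular genes, each centred on its mean over the 6 arrays (colour and printed value, log2), with arrays ordered by replicate number and treatment. Flt1, Tie1 and Eng are lowest on the 2 arrays of replicate number 1, and all genes but Eng are highest on saline replicates 2 and 3.

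The endothelial identity list had 29 genes, of which 23 had a probe and 21 were measured, so endothelial transcripts were present in every sample. Of the 21, 0 passed an unadjusted p under 0.05, against 4.08% of the measured probes in either direction. On average 10 were higher and 11 lower, and the median log2 fold change was -0.02. Cdh5, which encodes the cadherin of endothelial junctions, lay between -0.30 and 0.10 on all arrays, with a log2 fold change of 0.20 (standard error 0.17). Saline replicates 2 and 3 were the highest arrays for 5 of the 21 genes, against 13.4% of the measured probes. The 2 arrays of replicate number 1 were the highest for 2 of the 21, against 28.5% of the measured probes. They were the lowest for 14 of the 21, against 16.8% of the measured probes. Among these 14 was Cldn5, a tight junction gene of endothelium, at 1.72, 2.38 and 1.79 with saline and 1.53, 2.38 and 2.61 with LPS. Another was Emcn, an endothelial sialomucin gene, at -1.32, -0.02 and -0.49 with saline and -1.31, -0.68 and -0.31 with LPS. Cldn5 and Emcn were named after their values had been seen, as were Plvap and Cdh5. Plvap, whose product forms the diaphragms of fenestrated vessels, stood at 0.46, 1.99 and 1.68 with saline and at 0.29, 0.51 and 0.59 with LPS. Its log2 fold change of -0.92 (adjusted p = 0.315 in limma) was 0.00 without saline replicates 2 and 3. With the replicate number as a block its unadjusted p was 0.030 in limma, and it was then the 1 measured gene of the list past that threshold. Cd34 and Sox17, named after their values had been seen, also passed it with the block, both higher with LPS. Their log2 fold changes were 0.64 and 0.75, with unadjusted p of 0.0147 and 0.0145 in limma. Each was well above background on 3 LPS arrays and 2 saline arrays. Without saline replicates 2 and 3 their differences were 1.73 and -0.71.

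Among the other VEGF ligands, receptors and co-receptors, 5 of 7 genes were measured and 1 was lower at an unadjusted p under 0.05, against 2.39% of the measured probes. This was Vegfc, a growth factor for lymphatic vessels, named after its values had been seen, whose log2 fold change was -0.78 (standard error 0.32), with an unadjusted p of 0.047 and an adjusted p of 0.298 in limma. Its level was -0.36, 0.76 and 0.72 on the saline arrays and -0.44, -0.44 and -0.33 on the LPS arrays. Saline replicate 1 lay among the LPS arrays, and without saline replicates 2 and 3 the difference was -0.05. The median of the 5 genes was 0.01.

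In the list of endoglin and Acvrl1 signaling, 1 of 8 measured genes was lower at an unadjusted p under 0.05, against 2.39% of the measured probes. This was Bmpr2, a type II receptor for bone morphogenetic proteins, whose log2 fold change was -0.51 (standard error 0.21), with an adjusted p of 0.298 in limma. All LPS arrays, at -1.95, -1.84 and -2.26, lay below all saline arrays, at -1.20, -1.64 and -1.66. Its difference was -0.82 without saline replicates 2 and 3 and -0.14 without normalization between arrays. Smad5, a transducer of the same receptors, was higher on all LPS arrays by 0.32 (adjusted p = 0.376 in limma). Bmpr2 and Smad5, like Hey1, Vhl, Egln3, Gp1bb and Kitlg below, are named because their groups did not overlap, which was so in either direction for 11.4% of the measured probes.

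The median over 13 measured sprouting and arteriovenous genes was 0.04. Of these, 0 passed an unadjusted p under 0.05, against 4.08% of the measured probes in either direction. With the replicate number as a block 1 did, Cxcl12, a chemokine gene of vascular and stromal cells, with an unadjusted p of 0.021 in limma. It stood at 1.28, 0.75 and 0.58 with saline and at 1.74, 1.21 and 1.12 with LPS, so that the groups overlapped while the LPS array was the higher in each of the 3 pairs. Hey1, a transcriptional target of Notch, was higher on all LPS arrays, by 0.31 (adjusted p = 0.557 in limma). Hey2, a related gene of arterial endothelium and heart that was named after its values had been seen, as was Cxcl12, was higher by a log2 of 0.95 (standard error 0.21), with an unadjusted p of 0.0034 and an adjusted p of 0.271 in limma, but was well above background on 1 of 3 saline arrays. It is the 1 gene with a probe in this list that passed an unadjusted p under 0.05. Its levels were -4.05, -4.31 and -4.58 with saline and -3.17, -3.61 and -3.32 with LPS, without overlap, and the difference was 0.69 without saline replicates 2 and 3. Of 3 measured lymphatic markers, 1 was higher at an unadjusted p under 0.05, against 1.69% of the measured probes. This was Pdpn, podoplanin, which other cell types also express, at 0.76, 0.31 and 0.51 with saline and 1.01, 1.15 and 0.96 with LPS, a log2 fold change of 0.51 (adjusted p = 0.274 in limma). It was 0.28 without saline replicates 2 and 3.

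None of the measured genes passed an unadjusted p under 0.05 in limma among 7 of endothelial activation and haemostasis, 13 mural cell markers, 5 angiogenesis inhibitors and 9 of the hypoxia response, where 1.69% of the measured probes were higher and 2.39% lower. Their median log2 fold changes were 0.15, 0.09, 0.04 and 0.14. In the hypoxia response list, Vhl, which encodes the subunit that marks HIF proteins for destruction, was lower on all LPS arrays by 0.20 (adjusted p = 0.709 in limma). Egln3, a HIF prolyl hydroxylase gene, was higher on all of them by 0.29 (adjusted p = 0.530 in limma).

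**Figure D4:**
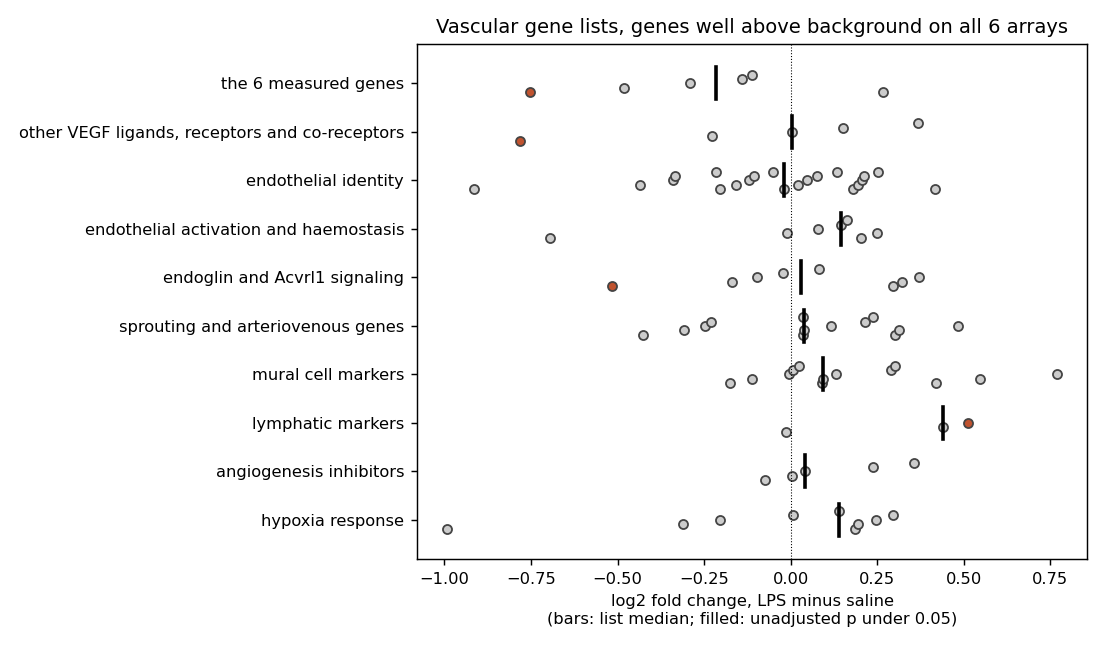
Log2 fold change (LPS minus saline) of each measured gene, by list, with the list median as a bar. Filled points passed an unadjusted p under 0.05 in limma: Vegfa, Vegfc and Bmpr2 at the left and Pdpn at the right.

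Blood cells in the vessels can also carry some of these transcripts, Pecam1 among them. Of 3 measured platelet markers 0 passed an unadjusted p under 0.05, against 4.08% of the measured probes in either direction. Gp1bb was lower on all LPS arrays by 0.70 (adjusted p = 0.321 in limma). Of 4 measured red blood cell markers 2 were lower at that threshold, Slc4a1 with a log2 fold change of -1.17 and Alas2 with one of -0.85 (adjusted p = 0.283 and 0.294 in limma), against 2.39% of the measured probes. These differences were -0.63 and -0.20 without saline replicates 2 and 3. Of 7 measured macrophage markers 2 were higher at that threshold, against 1.69% of the measured probes. These were Adgre1, by 0.81, and Csf1r, by 0.52 (adjusted p = 0.271 for both in limma). Of the 7, 5 had a higher mean with LPS and the others a lower one, with a median log2 fold change of 0.33. Mrc1, which macrophages and some sinusoidal and lymphatic endothelial cells express, was well above background on 3 LPS arrays and 0 saline arrays, and was at least 2.08-fold higher with LPS (adjusted p = 0.271 in limma). Of 5 measured granulosa cell markers 1 was higher at an unadjusted p under 0.05, against 1.69% of the measured probes. This was Kitlg, higher on all LPS arrays by 0.57 (adjusted p = 0.271 in limma). The median log2 fold change of the 5 was -0.05, and 2 of them had a higher mean with LPS. The part of these cell types in the vascular values was not tested.

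Kdr and the brightest Vegfa probe had a negative difference under each alternative run. The second Vegfa probe changed sign, to 0.47, without saline replicates 2 and 3. The next Vegfa probe, not measured on every array, was 0.11 without normalization between arrays and 0.25 without saline replicate 2. Flt1, Tie1, Pecam1 and Eng changed sign under at least 2 of the alternatives.

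**Figure D5:**
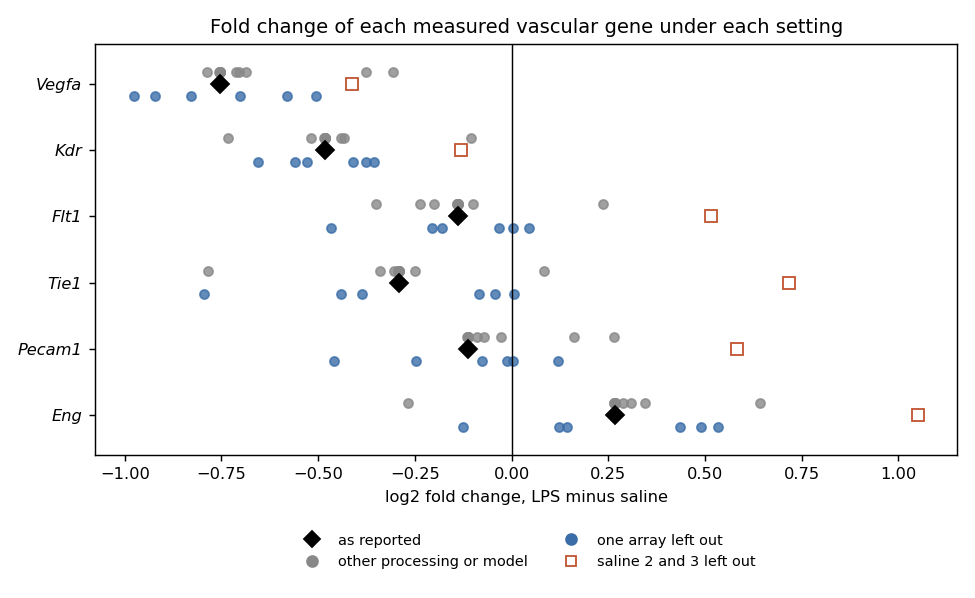
Log2 fold change (LPS minus saline) of the 6 measured vascular genes, as reported (diamonds), under other processing or models (grey), with 1 array left out (blue) and without saline replicates 2 and 3 (open squares). Vegfa is shown by its brightest probe, and the mean of its probes is added for all 6 arrays together only. These points and those of Kdr lie below 0. The open squares of the other 4 genes lie above 0.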

How the data were processed

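Ovarian RNA was measured on 6 single-color Agilent arrays, 3 with LPS and 3 with saline, grouped by the treatment and replicate number in the sample titles. The authors deposited the spot intensity values of each array from Agilent Feature Extraction 10.5.1.1, in which background is already subtracted and dim spots hold a surrogate value, and a table of the same intensities (within 0.497%) that is not scaled between arrays. The submitters' processing notes name lumi. The normalization of the arrays is not given in the sources used here. The study's methods state a criterion of 2-fold at p under 0.05 for the arrays and analysis of variance for its data as a whole, which for 2 groups is the unmoderated comparison of means run here as an alternative.

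Here, outlier-flagged spots were removed, log2 spots of a probe were averaged, and the 75th percentile of each array was subtracted. A probe was taken as well above background on an array if all its unflagged spots were. limma 3.58.1 in R 4.3.3 (lmFit, eBayes) was fitted to 30367 probes with at least 2 unflagged arrays per group and Benjamini-Hochberg adjustment. No filter on dim probes was applied. Names came from RefSeq accessions through a GRCr8 gene table (17990 probes, 15148 symbols), and 3416 accessions were not matched. The brightest probe stands for a gene. For a probe at background throughout one group, a bound was taken: the other group's mean against the dim arrays, each raised where needed to its lowest value above background. The procedure was tested on simulated data with independent noise between arrays. That simulation held no deviating arrays, replicate correlation or slide row effect.

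The 10 genes and all lists were chosen with earlier results of these data known. Named genes were all members, and of each list up to 4 genes with the largest difference among those measured on all 6 arrays with groups that did not overlap, and genes past 2-fold at an unadjusted p under 0.05 that were measured on every array of a treatment. Hey2, Vegfc, Cdh5, Cldn5, Emcn, Plvap, Cd34, Sox17 and Cxcl12 fell outside this rule and were named after their values had been seen. Inha and Zp3 stand for the granulosa cell and oocyte markers. Deviations from the group means were correlated between arrays of one replicate number, at 0.298, 0.215 and 0.254 for numbers 1, 2 and 3. Between different numbers the correlations lay between -0.271 and 0.160, the latter for LPS replicate 2 with saline replicate 3. The numbers were also used as a block. This pairing rests on the correlations alone. Alternatives covered background correction, normalization, the authors' table, flagged and dim spots, the test, slide row, replicate block, choice of probe and each array left out. The number of arrays limits the precision.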

Additional observations from a re-analysis of the deposited data

How the results depend on the processing

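At the 2-fold and unadjusted p criterion, 186 probes were higher and 327 lower. Higher probes numbered 2 with normexp background correction, 118 with quantile normalization, 1003 without normalization between arrays, 103 with the filter on dim probes, 100 in an analysis of variance, 1489 with the slide row as a block and 494 without saline replicates 2 and 3. Lower probes numbered 173 with quantile normalization, 177 with the filter, 48 in the analysis of variance, 66 with the slide row and 506 without saline replicates 2 and 3. Leaving out single arrays, 129 to 374 were higher and 81 to 757 lower, and the median over all probes was 0.34 without normalization between arrays. Members at an unadjusted p under 0.05 numbered 0 with quantile normalization, without normalization and in the analysis of variance, 1 with the percentile over well measured probes, the dim filter, the slide row, the mean of all probes and without saline replicates 2 and 3, and 0 to 5 when single arrays were left out, the 5 without saline replicate 1. Of the 6 measured on all arrays, 2 passed with normexp and with limma's trend and robust options, 0 with quantile normalization, without normalization, with that percentile, in the analysis of variance, with the mean of all probes and without saline replicates 2 and 3, and 0 to 3 when single arrays were left out. The 2-fold criterion gave 1 member (Tek, not above background) without saline replicates 2 and 3 and 0 otherwise. The median of the 6 genes was 0.55 without saline replicates 2 and 3 and ranged from -0.56 to 0.0027 when single arrays were left out. Without saline replicate 1, 282 lower and 8 higher probes passed after adjustment, none of them a member, and the lowest adjusted p of a member was 0.191 in limma. Without normalization between arrays, Pecam1 (0.26), Flt1 (0.24), Tie1 (0.085) and Angpt2 (0.25) changed sign. With the slide row as a block Pecam1 (0.16) and Eng (-0.27) did. Without saline replicates 2 and 3, Pecam1 (0.58), Flt1 (0.51), Tie1 (0.72) and Angpt2 (0.36) did. Tek, whose values here are fitted to signals at background, was -0.19 with normexp and -0.14 with quantile normalization, and the change in Angpt2 minus Angpt1, which has the same limit, was -0.22 with quantile normalization. Leaving out single arrays, Pecam1 lay between -0.46 and 0.12, Flt1 between -0.47 and 0.046, Tek between -0.58 and 0.45, Tie1 between -0.79 and 0.0061, Eng between -0.13 and 0.53 and Angpt2 between -0.37 and 0.027. The replicate block gave Kdr an unadjusted p of 0.024 and Vegfa one of 0.083 in limma, and changed no other member's side of the threshold. It moved 1 measured gene each of the endothelial identity (Plvap) and sprouting (Cxcl12) lists past it. Cd34 and Sox17 of the endothelial identity list, which were not measured on every array, also passed with this block. The causes were not tested.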
